A study of Mus musculus with 3 samples.

Results

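The comparison set the liver expressing human YAP (2SA) against the liver expressing human YAP (1SA), with 1 Agilent one-colour array for each. A gene entered when a probe of it was well above background on both arrays, and 13875 genes did so of 14825 measured on at least 1 of the 3 arrays of the series. The third array held RNA of a liver expressing YAP (WT) and is printed here as a level beside the mutants. All livers came from mice of strain c57BL6/J carrying the time label 2 days, and the study introduced Myc-tagged human YAP by hydrodynamic tail vein injection (HTVi), which pushes plasmid DNA into hepatocytes. The plasmid drove YAP from the mouse AFP enhancer II and a minimal albumin promoter, so the transgene was restricted to hepatocytes and reached part of them, while the RNA was that of whole liver. The study's methods describe male mice. The labels do not say whether 1 animal or a pool stood behind an array, and the title of the YAP (WT) sample carries the number 2.

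YAP is a coactivator of transcription that the kinases of the Hippo pathway phosphorylate on serines, which keeps it in the cytoplasm. In the nucleus it binds TEAD factors at the promoters and enhancers of growth and cytoskeleton genes, of which Ccn2 and Ccn1 are the best known. In the SA forms, serines are replaced by alanine so that the kinases cannot act there, and the names 1SA and 2SA count the replaced serines. In liver, active YAP is known for hepatocyte growth and for a shift towards bile duct features. The question put to these arrays was which genes differed between a liver with 1 and a liver with 2 such replacements. With 1 array a group, no difference below has a replicate check, no p-value was computed, and construct and liver sample cannot be told apart.

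Levels are deposited intensities scaled so that the 75th percentile of each array was 100, and differences are log2 values, YAP (2SA) minus YAP (1SA). Repeated spots of the same probe gave the error between spots, an SD of 0.10 for a difference. The value 0.20 was taken as the limit of spot error. It rests on the median over repeated probes of all brightness, and dim probes can spread more. The 10 spots of Batf, for example, ran from 19.4 to 33.8 on YAP (1SA). The limit may thus be too small for dim genes, and spot error does not cover the spread between animals. The lowest scaled intensity that counted as measured was 3.72 on the YAP (1SA) array and 1.86 on the YAP (2SA) array. The 75th percentile itself was an intensity of 275.7 for YAP (1SA), 319.5 for YAP (2SA) and 290.8 for YAP (WT), and no spot was saturated. All 8 hepatocyte markers were measured on each array, while 1 of 5 skeletal muscle markers, 1 of 4 pancreas markers and 2 of 5 adipocyte markers were. Of 5 kidney markers, 2 were measured on YAP (WT) and 3 on either mutant array.

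At least 2-fold differences went more often towards YAP (2SA). Of the 13875 genes, 346 (2.49%) were at least 2-fold higher in YAP (2SA) and 162 (1.17%) were lower by at least that much. At least 4-fold higher were 43 genes, and 21 were at least 4-fold lower. Small differences leaned the other way, since 45.4% of genes lay above 0 and the median over all genes was -0.03, with an SD of 0.43. Array features of every kind numbered 28851, with 544 (1.89%) past 2-fold upwards and 367 (1.27%) downwards. Dim genes held most of these differences. Among the 6938 genes of lower mean signal, 242 were at least 2-fold higher and 116 lower, against 104 and 46 among the 6937 genes of higher mean signal.

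**Figure D1:**
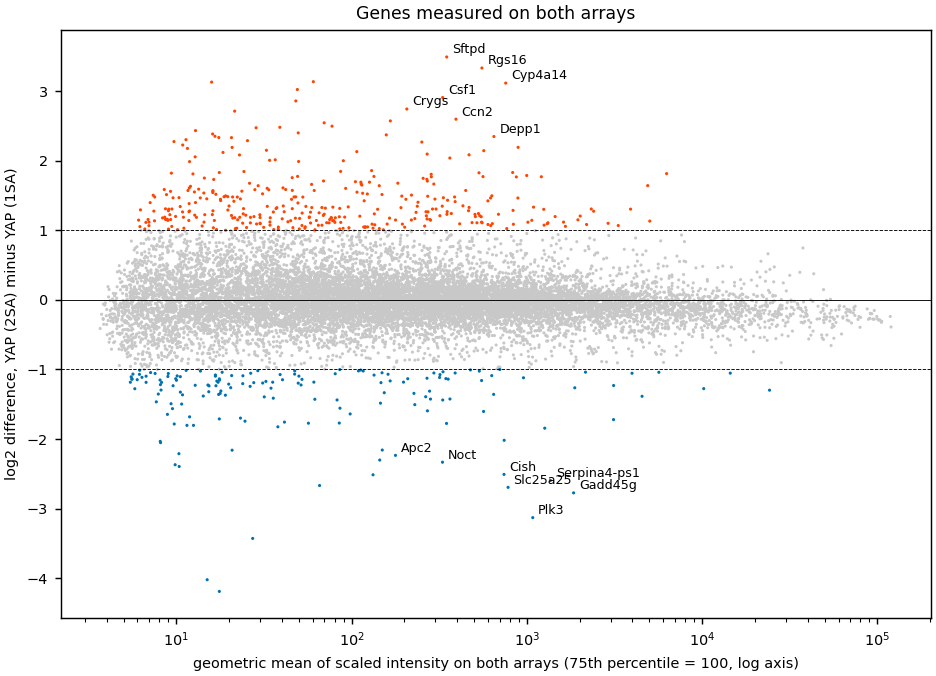
Each point is 1 of the 13875 genes measured on both arrays, by its geometric mean scaled intensity (log axis, 75th percentile = 100) and its log2 difference, YAP (2SA) minus YAP (1SA). Orange points are the 346 genes at least 2-fold higher, blue points the 162 genes at least 2-fold lower, dashed lines mark 2-fold, and the named genes are those with the largest differences among genes of higher mean signal.

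Most genes were read from a single spot, so repeats within an array were rare. One spot per array stood behind 339 of the 346 higher genes and all 162 lower genes, and behind 98.1% of all measured genes. The other 7 higher genes, Batf, Ccl2, Cdkn1a, Csf1, Gpr65, P2ry6 and Rnase6, had probes with 10 spots. In each the lowest spot on the YAP (2SA) array was brighter than the highest spot on the YAP (1SA) array. These genes were picked by the means of the same spots, so such a gap is likely and is no separate support. How often it occurs among all genes with several spots was not counted, and spots of an array are not replicates of a construct. A further measured probe existed for 52 of the 346 higher genes, with the same sign in 50 and at least 2-fold in 33. It existed for 20 of the 162 lower genes, with the same sign in 19 and at least 2-fold in 10.

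The YAP (WT) array lay between the mutants for most of these genes. It measured 337 of the 346 higher genes and was between both mutants in 290 of them (86.1%), below both in 19 and above both in 28. YAP (WT) was nearer to YAP (2SA) in 200 of the 337 and nearer to YAP (1SA) in 137. At least 2-fold from YAP (WT) was YAP (2SA) alone in 67 genes, YAP (1SA) alone in 81, both in opposite directions in 8 and neither in 181. Of the 162 lower genes it measured 153, with 125 between the mutants (81.7%), 77 nearer to YAP (1SA) and 76 nearer to YAP (2SA). A place between both arrays is likely for genes picked for their difference, and these counts share all 3 arrays.

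The highest differences were those of Sftpd and Rgs16. Sftpd, surfactant protein D, a collectin of innate immunity, had a level of 269 on the YAP (WT) array, 104 on YAP (1SA) and 1169 on YAP (2SA), a log2 difference of 3.49. Its other probe had levels of 34.4 on YAP (1SA) and 369 on YAP (2SA), a difference of 3.43. Rgs16, a brake on G protein signalling, had levels of 298, 175 and 1757 in the same order (3.33). Both genes thus stood lowest on YAP (1SA) and highest on YAP (2SA), with YAP (WT) nearer to YAP (1SA).

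Csf1, the growth factor on which macrophages depend, had the best repeat measurement among the leading genes. Its level was 133 on YAP (WT), 121 on YAP (1SA) and 906 on YAP (2SA), a 7.50-fold difference between the mutants. The 10 spots of this probe ran from 112 to 128 on YAP (1SA) and from 829 to 975 on YAP (2SA), so the spots did not overlap. Both other Csf1 probes were higher too, by log2 differences of 2.63 and 2.74. YAP (WT) and YAP (1SA) were close to each other, and YAP (2SA) stood apart.

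The remaining genes at the top did not share 1 order of the arrays. Crygs, a lens crystallin, went from 24.9 on YAP (WT) to 79.8 on YAP (1SA) and 534 on YAP (2SA). Cyp4a14, a fatty acid omega hydroxylase, had levels of 2659, 257 and 2228, so that YAP (1SA) was the low array. Txnip, a binding partner of thioredoxin, had levels of 662, 440 and 1564, and Tnfrsf12a, the receptor for the cytokine TWEAK, of 360, 283 and 1004. Both stood highest on YAP (2SA). C5ar1, the receptor for complement fragment C5a, was dimmer at 15.6, 8.40 and 55.0 (2.71), and normexp background correction, which shrinks dim differences, gave 1.41. Also among the 15 highest of all genes were Tinag (3.13), Zfp788 (3.13, and 1.50 with normexp), Mab21l4 (3.02), Muc13 (2.86, and 1.85 with normexp), S100a4 (2.57), Slc35f2 (2.54), Ccl7 (2.50) and Fibin (2.48, and 1.59 with normexp). Among the 15 highest genes of higher mean signal, Depp1 (2.35), Sprr1a (2.27), Ccl5 (2.19), Ms4a7 (2.14), Ccl2 (2.09), Fads3 (2.08) and Ccdc9b (2.04) completed the set.

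The 3 lowest differences came from genes that were dim on YAP (WT) and YAP (2SA), each read from 1 spot. Fbxw13 had levels of 4.13, 75.1 and 4.12 on YAP (WT), YAP (1SA) and YAP (2SA), Nkx3-2, a homeobox gene, of 3.46, 60.4 and 3.72, and Tas2r131, a bitter taste receptor, of 6.55, 89.4 and 8.31. The probes of Fbxw13 and Nkx3-2 did not count as measured on YAP (WT). With normexp the differences shrank from -4.19 to -1.67 for Fbxw13, from -4.02 to -1.63 for Nkx3-2 and from -3.43 to -1.91 for Tas2r131. The next 3 were brighter. Plk3, a stress-induced kinase, had levels of 849, 3195 and 365, which made YAP (2SA) 8.75-fold lower. Gadd45g, a growth arrest and stress gene, had levels of 1516, 4829 and 706 (-2.77). Slc25a25, a mitochondrial carrier of adenine nucleotides, had levels of 1243, 1987 and 307 (-2.69), and its other probe differed by -2.79. In Plk3, Gadd45g and Slc25a25, YAP (1SA) was the highest array, YAP (2SA) the lowest, and YAP (WT) lay between.

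Cish, an inhibitor of STAT signalling induced by cytokines and growth hormone, had levels of 1110, 1766 and 310 (-2.51). Noct, a gene with a strong daily rhythm in liver, had levels of 593, 741 and 147 (-2.33). In both, YAP (WT) was nearer to YAP (1SA), and YAP (2SA) was low. Phlda1 (3149, 5666 and 1719) had YAP (WT) midway between the mutants, and Foxq1, a forkhead factor (241, 644 and 188), was high on YAP (1SA). Mfsd2a, a lysophospholipid transporter, had levels of 544, 386 and 136, below YAP (WT) in both mutants. Vipr1 (-1.59) had a second, dim probe that differed by -0.26, so its probes did not match in size. The rest of the 15 lowest were Serpina4-ps1 (-2.59), Ihh (-2.51), Xlr3a (-2.39, and -0.83 with normexp), Klf5 (-2.37, and -0.84 with normexp), Cabyr (-2.30), Apc2 (-2.23) and Wfdc16 (-2.21, and -0.86 with normexp), and among genes of higher mean signal Clec4f (-2.02), Cbr3 (-1.84), Cyp7a1 (-1.60) and Kctd15 (-1.44), of which Clec4f, Cbr3 and Cyp7a1 return with their groups.

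**Figure D2:**
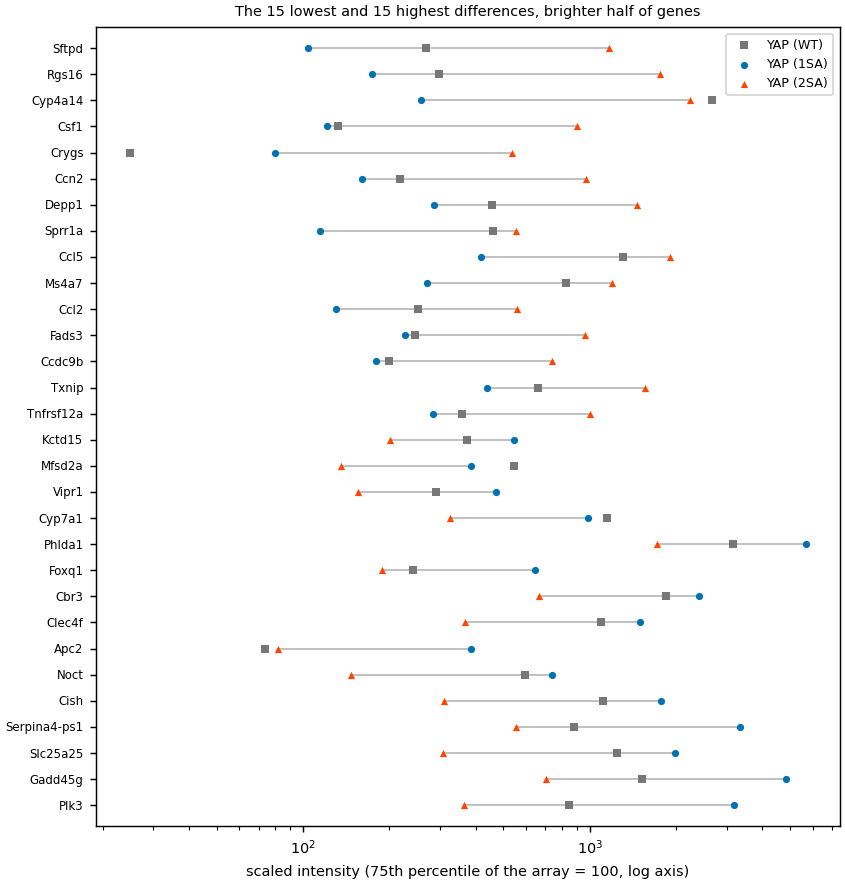
Scaled intensity (log axis, 75th percentile of the array = 100) on the YAP (WT) array (grey squares), the YAP (1SA) array (blue circles) and the YAP (2SA) array (orange triangles), 1 array each, for the 15 highest and 15 lowest differences among genes of higher mean signal. Grey lines join both mutants; Sftpd goes from 104 to 1169, Plk3 from 3195 to 365, and for Cyp4a14 the YAP (WT) square lies beyond YAP (2SA).

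Genes that YAP and TEAD are known to control were higher in YAP (2SA) where they differed at least 2-fold. Of 22 measured members of this list, 3 (13.6%) were at least 2-fold higher and none lower, where the shares over all genes, against which each list count is to be read, were 2.49% and 1.17%. Of the same members 16 lay above 0, with a median of 0.35 against -0.03 over all genes. Ccn2 (NM_010217), a matricellular protein, had levels of 218 on YAP (WT), 160 on YAP (1SA) and 968 on YAP (2SA), a 6.05-fold difference between the mutants. YAP (1SA) stood below YAP (WT), by a log2 difference of -0.44. The study used this message as its measure of active YAP. By real-time PCR it reported an increase with each of its active mutants but not with YAP (WT). YAP (1SA) was among those mutants, and its array level did not show such an increase. Without replicate arrays this contrast cannot be settled. Ccn1, a close relative of Ccn2, had levels of 123, 184 and 455 (1.31). Ankrd1, a dim gene of the same set, had levels of 12.5, 4.38 and 12.4 (1.50), and normexp gave 0.32. The order of the arrays differed between them. Ccn1 increased from YAP (WT) over YAP (1SA) to YAP (2SA), whereas Ankrd1 was low on YAP (1SA) and alike on the other arrays.

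The other members spread on both sides of 0. Amotl2, an angiomotin family member and Hippo regulator, had levels of 223, 249 and 488 (0.97), and Gadd45a had levels of 100.4, 140 and 258 (0.88). At the low end stood Arhgef17 (-0.51), Dock5 (-0.25) and Nt5e (-0.25). Against YAP (WT) the list had a median of 0.03 in YAP (1SA) and 0.28 in YAP (2SA), and both values share the YAP (WT) array. Among 19 measured Hippo kinases, TEADs and coactivators the median was 0.03, with -0.01 under normexp, and Tead1 came closest to 2-fold, with levels of 70.5, 73.1 and 146 (1.00, just below the threshold). Mouse Yap1 (NM_001171147) differed by -0.08, within spot error. The transgene was human, so this probe checks no label.

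The promoters of Ccn1 and Ankrd1 hold the letters to which TEAD factors are known to bind, and they are shown as the measured YAP targets past 2-fold with a promoter entry. The windows run from 250 bases before to 50 after the start of transcription (RefSeq, GRCm38.p6), 5' to 3' on the strand of the gene, with GGAATG or its complement in capitals.
Ccn1, chr3:145649936-145650235, minus strand: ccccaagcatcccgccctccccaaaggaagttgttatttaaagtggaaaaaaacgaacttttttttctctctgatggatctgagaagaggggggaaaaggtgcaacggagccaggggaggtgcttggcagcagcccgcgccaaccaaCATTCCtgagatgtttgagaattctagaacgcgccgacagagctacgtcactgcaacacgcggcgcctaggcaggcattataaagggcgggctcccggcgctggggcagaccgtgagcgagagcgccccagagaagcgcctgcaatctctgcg
Ankrd1, chr19:36119795-36120094, minus strand: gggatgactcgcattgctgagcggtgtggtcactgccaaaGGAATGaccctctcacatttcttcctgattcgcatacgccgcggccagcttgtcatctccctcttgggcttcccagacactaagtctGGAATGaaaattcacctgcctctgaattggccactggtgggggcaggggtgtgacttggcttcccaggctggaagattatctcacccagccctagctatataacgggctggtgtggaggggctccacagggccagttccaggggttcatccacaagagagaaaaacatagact
Ccn1 holds 1 match, 103 bases before the start, and Ankrd1 holds 2 matches, at 210 and 123 bases before it. On either strand, 53.3% of the 15 YAP target promoters in the table held GGAATG, against 12.4% of the 11072 promoters of measured genes. The share was 14.2% for genes at least 2-fold higher and 16.5% for those at least 2-fold lower. A match describes letters and is not evidence of binding.

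The study followed CDC42 and the exchange factors that load small GTPases of its family with GTP. Fgd3 (NM_015759), an exchange factor for CDC42, had levels of 37.7 on YAP (WT), 18.2 on YAP (1SA) and 73.6 on YAP (2SA) by its brighter probe (2.01), and of 9.69, 10.2 and 49.4 by its dimmer probe (2.27). Both probes put YAP (2SA) highest and differ on the order of the other arrays. Ect2 (NM_007900), an exchange factor of cytokinesis, had levels of 65.2, 129 and 210 and differed by 0.70. The brighter probes of Cdc42 (0.22) and Rac1 (0.19) lay close to the limit of spot error, and the dimmer ones differed by 0.15 and -0.008. Over 39 measured exchange factors and effectors, 2 were at least 2-fold higher (Fgd3 and Vav3, the latter 0.39 with normexp) and 1 lower (Tiam2, -1.14), 23 lay above 0, and the median was 0.12. Was (0.99), Fgd2 (0.79) and Rac2 (0.75), genes of blood cells, followed at the high end.

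Cell cycle genes differed little between the mutants in mitosis and leaned towards YAP (2SA) in S phase. The 35 measured genes of mitosis and cytokinesis had a median of 0.10, and 21 lay above 0. In both mutants this list stood above YAP (WT), with medians of 0.75 in YAP (1SA) and 0.84 in YAP (2SA), and YAP (WT) lay between the mutants in 0 of 34 genes. Ttk, a spindle checkpoint kinase, was at least 2-fold higher at levels of 2.1, 7.0 and 16.8 (1.26), which normexp reduced to 0.26. Ccnb2 (-0.59), Cdca3 (-0.36) and Prc1 (-0.28) were lowest. Of the 31 measured genes of DNA replication and S phase, none was at least 2-fold either way, 25 lay above 0 and the median was 0.30. The licensing factor Cdt1 had levels of 306, 361 and 659 (0.87), E2f8 of 44.6, 51.8 and 93.6 (0.85) and E2f1 of 141, 185 and 322 (0.80). All 3 increased in the order YAP (WT), YAP (1SA), YAP (2SA). Ccne1 (-0.59) and Mcm10 (-0.57) went the other way.

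Gene lists of liver functions and cell types were compared in the same way. The 47 lists named 1040 genes, of which 953 were measured on both arrays. Of the other 87, 14 were measured on YAP (2SA) alone, 3 on YAP (1SA) alone and 48 on neither, and 22 had no probe matched. The median difference lay above 0 in 25 lists and below 0 in 22, and in 6 lists the mean had the other sign. The 5 highest medians were those of monocyte and macrophage genes (1.01), bile duct genes (0.73), chemokines (0.62), fetal liver genes (0.45) and type I interferon genes (0.42). The 5 lowest were those of pericentral genes (-0.51), both lipid synthesis lists (-0.42 each), glucocorticoid and metallothionein genes (-0.39) and red blood cell genes (-0.31).

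**Figure D3:**
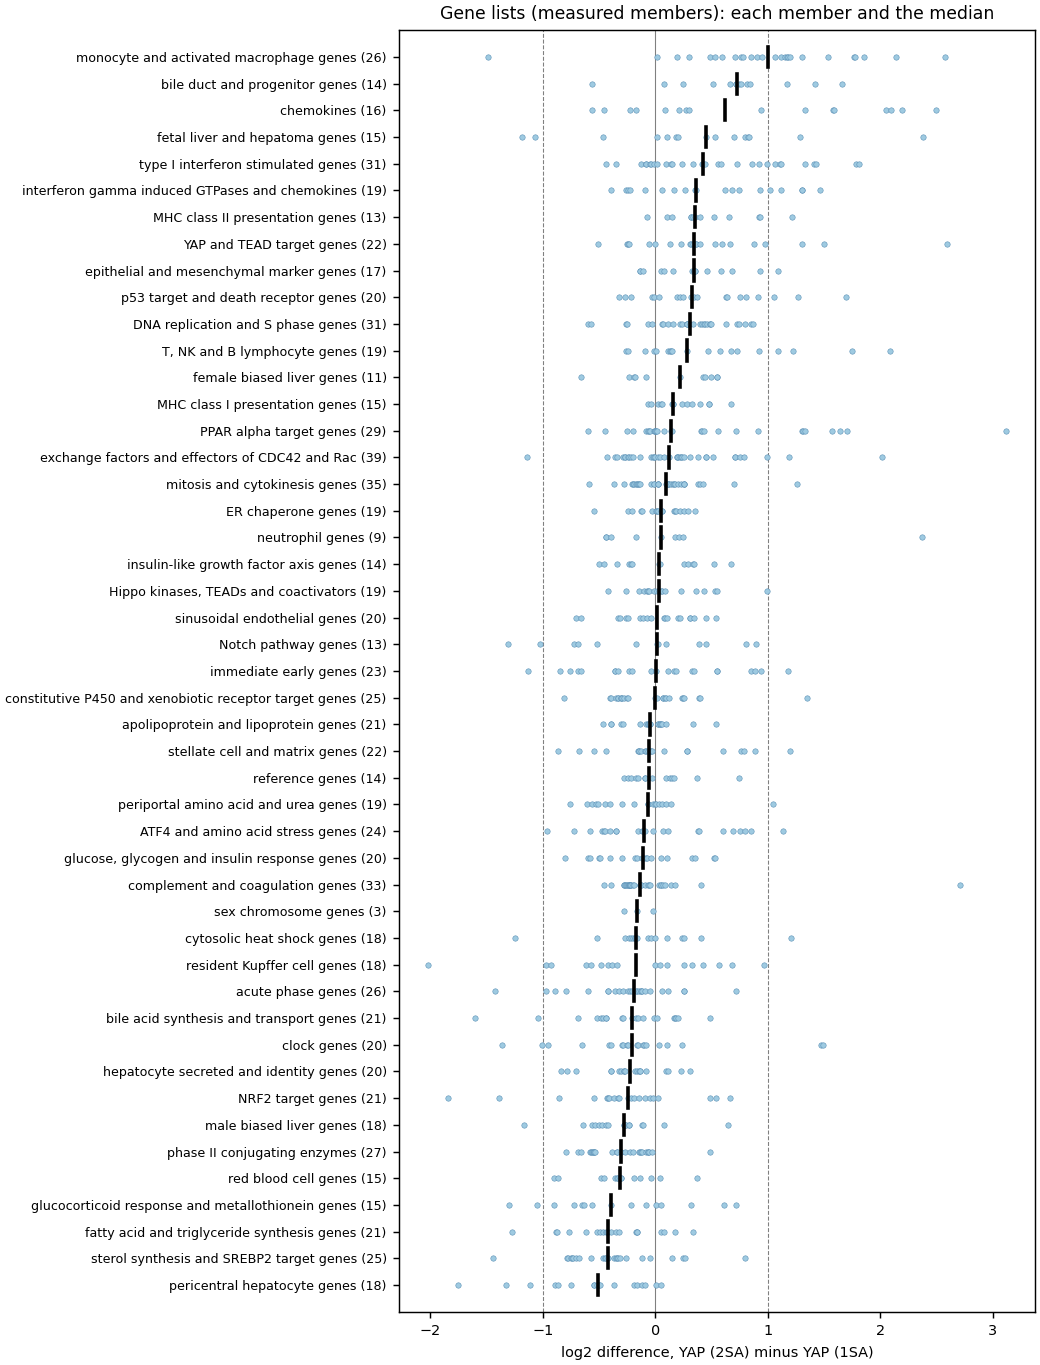
Log2 difference, YAP (2SA) minus YAP (1SA), of each measured member (circles) of the 47 gene lists and the median of each list (black bars), with the number of measured members in parentheses. Dashed lines mark 2-fold. Medians run from -0.51 for pericentral hepatocyte genes to 1.01 for monocyte and activated macrophage genes, and most members of most lists lie within 2-fold.

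Genes of monocytes and activated macrophages stood highest of all lists. Of 26 measured members, 13 were at least 2-fold higher and 1 lower, where 2.49% of all genes were higher. Above 0 lay 25, with a median of 1.01. S100a4 had levels of 142 on YAP (WT), 68.2 on YAP (1SA) and 405 on YAP (2SA) (2.57), and its other probe differed by 1.98. Ms4a7, a surface protein of macrophages, had levels of 823, 270 and 1193 (2.14). Cx3cr1, the fractalkine receptor, had levels of 108, 72.5 and 248 (1.77), and Lgals3, galectin 3, of 5374, 2485 and 6132 (1.30). In each of these YAP (1SA) was lowest and YAP (2SA) highest. The other members past 2-fold were Ms4a6c (1.86), S100a6 (1.77), Itgax (1.53), Lyz2 (1.20), Fcgr1 (1.18), Gpnmb (1.17), Fcer1g (1.15), Cd52 (1.12) and Fcgr4 (1.06). The list had a median of -0.72 against YAP (WT) in YAP (1SA) and of 0.23 in YAP (2SA), with YAP (WT) between the mutants in 19 of 26 genes.

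Ccr2, the receptor that draws monocytes from blood, was the exception, with levels of 48.5, 244 and 87.3 (-1.48). Its ligands went the other way. Ccl2 had levels of 252, 130 and 557 (2.09), with 10 spots running from 118 to 138 on YAP (1SA) and from 504 to 593 on YAP (2SA). Ccl7 had levels of 76.3, 32.6 and 184 (2.50), and Ccl12 of 12.4, 6.28 and 26.1 (2.05, and 0.60 with normexp). Other chemokines were higher as well, with Ccl5 at 1309, 417 and 1904 (2.19), Ccl3 at 53.04, 24.3 and 72.8 (1.58) and Ccl4 at 105, 49.3 and 124 (1.33). Ccl8 (1.58) completed the 7 of 16 measured chemokines that were at least 2-fold higher, while none was lower. The median of the chemokines was 0.62, and it was 0.29 over 20 genes with no filter on dim probes and 0.30 over the 11 genes of higher signal. With normexp, Ccl3, Ccl4, Ccl8 and Ccl12 stayed below 2-fold. Cxcl1 (-0.23), which attracts neutrophils, Cxcl12 (-0.17), Cxcl14 (-0.45) and Ccl24 (-0.56) were the 4 members below 0.

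**Figure D4:**
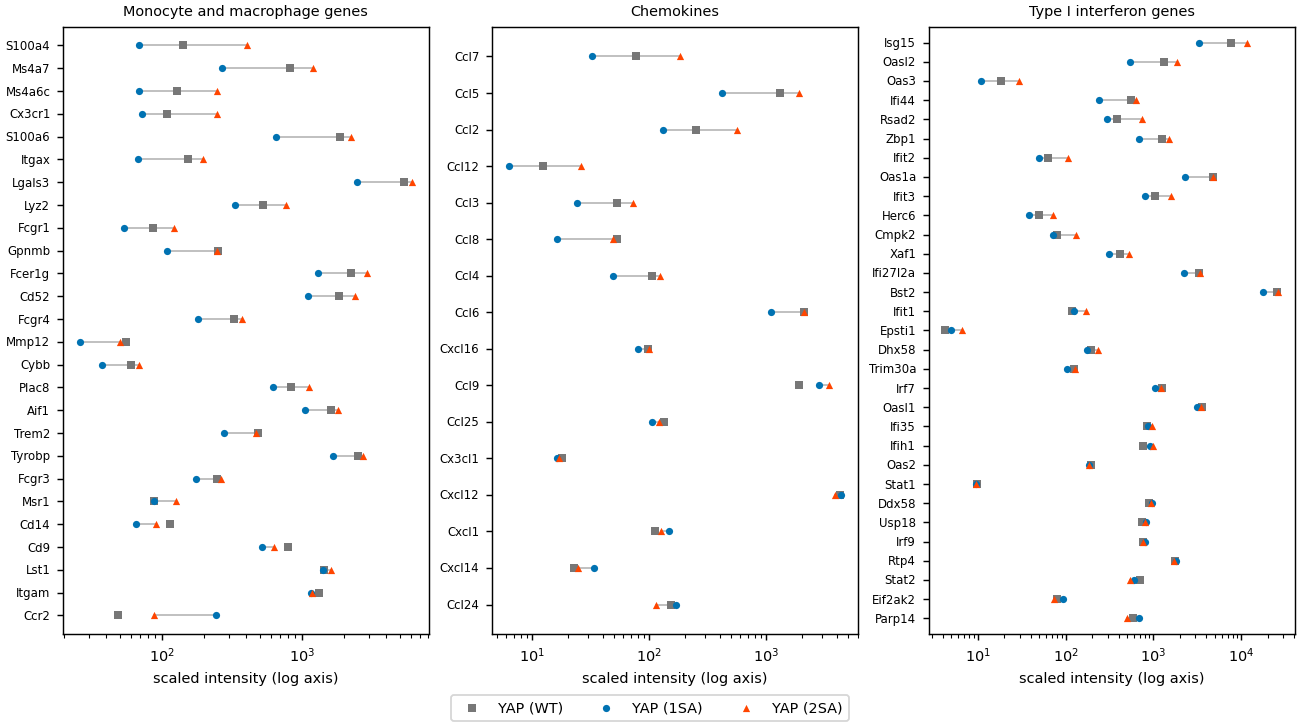
Scaled intensity (log axis) on the YAP (WT) array (grey squares), the YAP (1SA) array (blue circles) and the YAP (2SA) array (orange triangles), 1 array each, for the measured members of 3 gene lists, sorted by the difference between the mutants, which grey lines join. The blue circle is left of the orange triangle in 25 of 26 macrophage genes, 12 of 16 chemokines and 23 of 31 type I interferon genes, and the grey square often lies between them.

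Resident Kupffer cell genes did not move with the macrophage genes. Of 18 measured members, 9 lay above 0, 1 was at least 2-fold lower, and the median was -0.17, with 0.02 when dim probes were left out. Clec4f, a lectin of Kupffer cells, had levels of 1090, 1493 and 369 (-2.02), the immune receptor Vsig4 of 1377, 1444 and 736 (-0.97), and Id3, a factor of Kupffer cell identity, of 1138, 1460 and 770 (-0.92). These 3 were lowest on YAP (2SA). The complement chains C1qa (0.68), C1qb (0.57) and C1qc (0.42) and the iron-responsive factor Spic (0.96), which other macrophages also express, were higher there. The summed level of 6 Kupffer cell markers was 16293 on YAP (WT), 13155 on YAP (1SA) and 9923 on YAP (2SA). The summed level of 5 monocyte or macrophage markers was 4541, 3487 and 4864. Cd5l gave most of the Kupffer cell sum, and several markers are also members of the lists, so the sums are no separate measurement. In whole liver fewer cells of a type and less RNA per cell cannot be told apart.

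Interferon genes were higher in YAP (2SA) for part of the lists. Of 31 measured type I interferon stimulated genes, 8 were at least 2-fold higher and none lower, 23 lay above 0 and the median was 0.42. Isg15, a ubiquitin-like modifier, had levels of 7568 on YAP (WT), 3343 on YAP (1SA) and 11753 on YAP (2SA) (1.81), and its other probe differed by 1.90. Oasl2 had levels of 1334, 537 and 1853 (1.79), Rsad2, the antiviral enzyme viperin, of 389, 295 and 741 (1.33), and Oas3 of 18.4, 10.9 and 29.3 (1.43, and 0.57 with normexp). Ifi44 (1.41), Zbp1 (1.12), Ifit2 (1.11) and Oas1a (1.07) were the other members past 2-fold. The transcription factors that switch these genes on were close to 0, with Stat2 at -0.13 and Irf9 at -0.08, and Parp14 (-0.44) and Eif2ak2 (-0.35) were lowest.

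Genes induced by interferon gamma showed the same split. Of 19 measured members, 5 were at least 2-fold higher and none lower, and the median was 0.37. The GTPases Tgtp2 (1482 on YAP (1SA) and 3662 on YAP (2SA), 1.31), Gbp2 (193 and 476, 1.30), Gbp3 (1.12), Gbp9 (1.02) and the dim Tgtp1 (1.46, and 0.44 with normexp) passed 2-fold. Tgtp1 and Tgtp2 are near-identical copies, so signal may be shared between their probes. Iigp1 (-0.26), Irgm2 (-0.24) and Socs1 (-0.39), of the same response, were lower. The monocyte or macrophage marker sum given above was higher in YAP (2SA), as both interferon lists were, while the Kupffer cell sum was lower. The part of these cells in the interferon lists was not tested.

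Many interferon genes carry the interferon stimulated response element (ISRE), searched here on both strands as GAAA, any 2 bases and GAAA. Windows of Isg15, Oas3 and Rsad2, members past 2-fold in which it was found, are shown with the same limits and source as above and each match in capitals.
Isg15, chr4:156200769-156201068, minus strand: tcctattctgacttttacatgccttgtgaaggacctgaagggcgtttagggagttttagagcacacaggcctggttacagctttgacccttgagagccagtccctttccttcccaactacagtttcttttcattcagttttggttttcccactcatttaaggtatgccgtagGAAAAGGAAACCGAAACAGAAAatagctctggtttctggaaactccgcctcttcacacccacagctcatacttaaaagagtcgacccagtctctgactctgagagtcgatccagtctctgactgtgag
Oas3, chr5:120777610-120777909, minus strand: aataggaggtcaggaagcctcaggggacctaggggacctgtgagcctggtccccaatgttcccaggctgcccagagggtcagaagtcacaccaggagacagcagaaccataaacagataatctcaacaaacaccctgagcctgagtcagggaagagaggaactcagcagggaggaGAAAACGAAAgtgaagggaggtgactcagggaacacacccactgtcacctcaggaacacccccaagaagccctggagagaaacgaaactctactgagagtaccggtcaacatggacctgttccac
Rsad2, chr12:26456403-26456702, minus strand: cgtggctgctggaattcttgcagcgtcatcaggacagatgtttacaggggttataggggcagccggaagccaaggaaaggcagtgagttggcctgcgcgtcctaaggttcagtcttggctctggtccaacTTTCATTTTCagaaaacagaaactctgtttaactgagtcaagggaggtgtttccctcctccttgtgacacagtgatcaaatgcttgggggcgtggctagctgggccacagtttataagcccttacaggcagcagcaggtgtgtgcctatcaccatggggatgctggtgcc
Isg15 holds 3 overlapping matches, at 78, 72 and 66 bases before the start, Oas3 holds 1 at 75 and Rsad2 holds 1 at 120 in the other orientation. The windows of Oasl2 and Ifi44 hold none of these letters. The motif was found in 12 of 23 promoters of the type I list (52.2%), in 11 of 14 of the interferon gamma list (78.6%) and in 3.26% of all promoters of measured genes. Within the type I list, the 12 genes with the motif had a median difference of 0.50, with 4 at least 2-fold higher, and the 11 without it of 0.73, with 3 at least 2-fold higher. Within the interferon gamma list, the 11 genes with the motif had a median of 0.37 with 4 past 2-fold, and the 3 without it had 0.62 with none. Among genes at least 2-fold higher, 29 of 268 promoters held it (10.8%), and among genes at least 2-fold lower 5 of 115 (4.35%).

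Other motifs were searched in the same windows. The AP-1 letters TGANTCA stood in 5.64% of all promoters, in 11.6% of those of genes at least 2-fold higher and in 4.35% of those of genes at least 2-fold lower. The STAT letters TTCNNNGAA (GAS) stood in 7.42%, 11.6% and 6.09%, and the E-box CACGTG of clock and MYC factors in 9.77%, 7.09% and 8.70%. The CHR letters TTTGAA of cell cycle promoters stood in 12.7%, 14.9% and 13.9% and in 76.7% of the mitosis list. The CCAAT box stood in 38.7%, 35.4% and 38.3%. The AP-1, GAS and ISRE letters were thus more frequent among the higher genes than among all promoters, and these shares are descriptions.

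Of 19 measured T, NK and B lymphocyte genes, 4 (21.1%) were at least 2-fold higher and none lower, with a median of 0.28, and 0.14 with normexp. The granule proteases of killer cells led, with Gzma at 312, 140 and 469 (1.75) and Gzmb at 29.8, 11.1 and 47.1 (2.08, and 0.94 with normexp). Cd3g (1.22, and 0.32 with normexp) and Cd2 (1.09, and 0.58 with normexp) passed 2-fold, whereas Cd3e (-0.26) and Cd4 (-0.24) lay below 0. The summed level of T or NK cell markers was 996, 974 and 1017, a log2 ratio of 0.06 between the mutants. Nkg7 (0.12) and Cd3e gave most of that sum. The dimmer markers Cd2, Klrb1c (0.92), Lck (0.67) and Cd3d (0.57) were higher in YAP (2SA), and Cd3e was the marker below 0. Of 9 measured genes of the neutrophil list, 1 was at least 2-fold higher, Chil3, a chitinase-like protein that macrophages also make, at 151, 69.3 and 358 (2.37). The alarmins S100a8 (0.21) and S100a9 (0.24) lay near the limit of spot error. The median of the 9 was 0.05, and 4 lay below 0, among them Elane (-0.44) and Retnlg (-0.40). Of the genes that define neutrophils, Mpo and Ltf were measured on YAP (2SA) alone, and Ly6g had no probe matched. Ngp, Cxcr2, Mmp8 and Mmp9 were measured on neither mutant array.

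Antigen presentation genes leaned towards YAP (2SA) by small amounts. Of 13 measured MHC class II genes, 12 lay above 0, with a median of 0.35 and 1 at least 2-fold higher, the dim costimulator Cd40 (1.22, and 0.30 with normexp). The protease Ctss had levels of 3681, 2128 and 4041 (0.92), and Cd74, the invariant chain, of 931, 654 and 814 (0.32). Of 15 measured MHC class I genes, 13 lay above 0, none passed 2-fold and the median was 0.16. The immunoproteasome subunit Psmb8 (0.67) was highest and B2m (-0.06) lowest.

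Bile duct and progenitor genes were higher in YAP (2SA), mostly at low signal. Of 14 measured members, 13 lay above 0, 3 were at least 2-fold higher and none lower, with a median of 0.73. The value was 0.30 with normexp and 1.42 over the 3 genes of higher signal. Krt23, a keratin of reactive ducts and stressed hepatocytes, had levels of 444 on YAP (WT), 165 on YAP (1SA) and 524 on YAP (2SA) (1.66), and Spp1, osteopontin, of 1216, 366 and 980 (1.42). Sox4 (1.17, and 0.45 with normexp) was the other. Krt19 had levels of 46.1, 26.1 and 43.7 (0.74) and Sox9 of 31.2, 25.5 and 36.3 (0.51). YAP (1SA) was the low array in each of these 5 genes, and the list had a median of -0.73 against YAP (WT) in YAP (1SA) and of 0.08 in YAP (2SA). The summed level of 6 cholangiocyte markers was 127, 91.0 and 131.

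Fetal liver and hepatoma genes went both ways. Of 15 measured members, 2 were at least 2-fold higher and 2 lower, with a median of 0.45, and 0.14 over the 10 of higher signal. Gpc3, glypican 3, was dim at 8.35, 7.05 and 36.8 (2.38, and 0.91 with normexp), and Ly6d had levels of 1273, 534 and 1302 (1.29). Tff3, trefoil factor 3, had levels of 136, 298 and 131 (-1.18), and the imprinted non-coding RNA Meg3 of 131, 234 and 111 (-1.07). Afp, of the bile duct list, differed by 0.76. Of 13 measured Notch pathway genes, none was at least 2-fold higher and 2 dim targets, Hey1 (-1.31, and -0.68 with normexp) and Heyl (-1.02, and -0.58 with normexp), were lower, while Hes1 (0.80) was higher.

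Targets of p53 and death receptor genes held 3 of 20 measured members at least 2-fold higher and none lower, with a median of 0.33. Cdkn1a, the cell cycle inhibitor p21, had levels of 159, 70.4 and 227 (1.69), and its 10 spots ran from 62.4 to 79.2 on YAP (1SA) and from 215 to 248 on YAP (2SA). Phlda3 had levels of 254, 171 and 412 (1.27), and Apaf1, of the apoptosome, was dim (1.06, and 0.23 with normexp). Pmaip1 (0.91) and Bax (0.63) were higher by less, and Mdm2 (-0.01) did not differ beyond spot error. Epithelial and mesenchymal markers had a median of 0.35 over 17 members with 1 past 2-fold, Snai2, at 180, 89.7 and 191 (1.09). Tgfb1 (0.93) and the tight junction genes Ocln (0.68) and Cldn1 (0.59) followed, and Zeb1 (-0.14), Itgb4 (-0.14) and Dsp (-0.11) were lowest, within spot error.

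Targets of PPAR alpha, the fatty acid sensor of the liver, split into a group that differed strongly and a group that did not. Of 29 measured members, 7 were at least 2-fold higher and none lower, yet the median was 0.14. Cyp4a14 (3.11) was joined by its family members Cyp4a10, at 2250, 795 and 1958 (1.30), and Cyp4a31, at 2030, 688 and 1731 (1.33). Other probes of Cyp4a10 differed by 1.27 and 0.56, and other probes of Cyp4a31 by 1.27 and 0.27, so the probes of each gene did not match in size. Cyp4a genes are close in sequence, so their probes may share signal. Vnn1, pantetheinase, had levels of 355, 150 and 489 (1.71), Angptl4, an inhibitor of lipoprotein lipase, of 5031, 2769 and 8637 (1.64), Acot3 of 106, 26.6 and 79.1 (1.57) and Acot2 of 31.4, 15.3 and 38.1 (1.31, and 0.67 with normexp). In these genes YAP (1SA) was the low array, and YAP (WT) was close to YAP (2SA) or beyond it except in Angptl4. Of the 29 members 11 lay below 0, and Plin4 was lowest (-0.60). Fabp1, a fatty acid binding protein (-0.25), Acaa1b, a peroxisomal thiolase (-0.08), and Ppara itself (-0.20) were also among the members that were not higher.

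Most sterol synthesis genes were lower in YAP (2SA) than in YAP (1SA), and the list's medians lay above YAP (WT) in both. Of 25 measured members, 4 lay above 0 and the median was -0.42. Fdps had levels of 1447, 7651 and 4450 (-0.78), Idi1 of 901, 2341 and 1371 (-0.77) and Cyp51 of 34.3, 124 and 74.2 (-0.74). These kept the order YAP (WT), YAP (2SA), YAP (1SA). The list had medians of 0.92 in YAP (1SA) and 0.57 in YAP (2SA) against the shared YAP (WT) array, which lay between the mutants in 2 of 25 genes. Srebf2, the regulator of the set, was the highest member (0.80). Genes of fatty acid and triglyceride synthesis had the same median, -0.42, with 4 of 21 above 0. Scd1, the stearoyl-CoA desaturase, had levels of 5548, 15882 and 6560 (-1.28), Acss2 of 1394, 3633 and 1965 (-0.89), and Acacb of 532, 1525 and 831 (-0.88). In these YAP (1SA) was the high array.

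Pericentral hepatocyte genes, which depend on Wnt signals from the central vein, had the lowest median of all lists, -0.51. Of 18 measured members, 2 lay above 0, 3 were at least 2-fold lower and none higher. Lgr5, a receptor that amplifies Wnt, had levels of 34.1, 76.1 and 22.5 (-1.76), Axin2, a feedback inhibitor, of 11.9, 16.7 and 6.66 (-1.33, and -0.71 with normexp), and Slc1a2, a glutamate carrier, of 286, 467 and 216 (-1.12). Cyp1a2 had levels of 1518, 2571 and 1383 (-0.89), Glul, glutamine synthetase, differed by -0.55 and Cyp2e1 by -0.50. YAP (1SA) was the highest array and YAP (2SA) the lowest in Lgr5, Axin2, Slc1a2, Cyp1a2 and Cyp2e1. Other Wnt targets were close to 0, with Rnf43 at -0.16, Sp5 at -0.12 and Znrf3 at 0.05. The periportal list, of the opposite zone, had a median of -0.06 over 19 genes, with Psat1 (1.05, and 0.55 with normexp) at least 2-fold higher and Tat (-0.76) and Sds (-0.61) lowest.

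**Figure D5:**
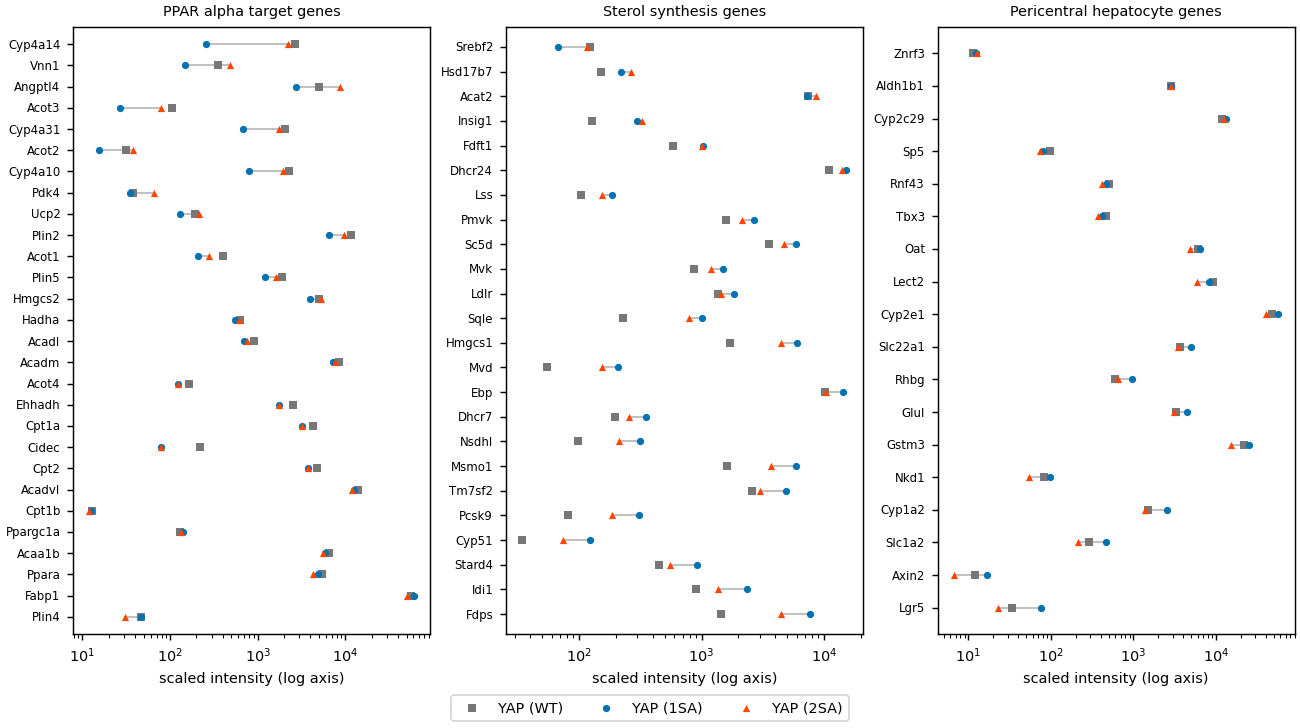
Scaled intensity (log axis) on the YAP (WT) array (grey squares), the YAP (1SA) array (blue circles) and the YAP (2SA) array (orange triangles), 1 array each, for the measured members of 3 gene lists, sorted by the difference between the mutants, which grey lines join. A PPAR alpha target and a sterol gene are not drawn. The 7 uppermost PPAR alpha targets have their blue circle at the left, most sterol genes have the grey square at the left of both mutants, and 16 of 18 pericentral genes have the orange triangle left of the blue circle.

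Further hepatocyte lists leaned below 0 by small amounts, which quantile normalisation made smaller. Of 27 measured phase II conjugating enzymes, 1 lay above 0 (Sult1a1, 0.49), none passed 2-fold, and the median was -0.31, and -0.19 with quantile normalisation. Of 20 hepatocyte identity genes, 4 lay above 0 and the median was -0.23, and -0.03 with quantile normalisation, with the transcription factors Foxa3 (-0.84), Nr1i3 (-0.79) and Foxa2 (-0.70) lowest and Alb at -0.39. Of 18 male biased liver genes, 2 lay above 0, Cspg5 (-1.17, and -0.66 with normexp) was at least 2-fold lower and the median was -0.28, and -0.16 with quantile normalisation, whereas 11 female biased genes had a median of 0.22, which became -0.09 over 19 genes with no filter on dim probes. Of all genes of higher mean signal 41.1% lay above 0, and the summed level of 8 hepatocyte markers was 351392 on YAP (WT), 370063 on YAP (1SA) and 307319 on YAP (2SA). The part of that in each hepatocyte list was not tested. Constitutive P450 genes had a median of 0.00 and their 1 member past 2-fold was Cyp26b1, which degrades retinoic acid, at 412, 270 and 689 (1.35).

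Bile acid genes had 2 of 21 members at least 2-fold lower and none higher, with a median of -0.20. Cyp7a1, the rate-limiting enzyme of bile acid synthesis, had levels of 1145, 987 and 325 (-1.60), low on YAP (2SA). Cyp7b1, of the alternative pathway, had levels of 3541, 8120 and 3947 (-1.04), high on YAP (1SA). Nr0b2, the repressor SHP of Cyp7a1, was the highest member at 149, 123 and 172 (0.49). Of 21 NRF2 target genes, 4 lay above 0 and 2 were at least 2-fold lower, with a median of -0.24, and -0.09 with quantile normalisation. These were Cbr3, a carbonyl reductase, at 1848, 2395 and 667 (-1.84) and Srxn1, sulfiredoxin, at 5112, 7341 and 2809 (-1.39). Nqo1 (-0.86) was next, and Hmox1 (0.67) was highest.

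Clock genes differed in opposite directions. Nr1d1, the repressor REV-ERB alpha, had levels of 184, 115 and 324 (1.49), and Arntl, the activator BMAL1 that Nr1d1 represses, had levels of 16.2, 13.3 and 37.1 (1.48, and 0.72 with normexp). Usp2 had levels of 822, 1034 and 404 (-1.36), Ciart of 142, 160 and 79.4 (-1.01), and Cry1 (-0.95) and Per2 (-0.65) followed. The 20 measured members had a median of -0.20, with 2 past 2-fold in each direction. The time of day at which livers were taken is not given in the sources used here.

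Glucocorticoid response and metallothionein genes had 2 of 15 members at least 2-fold lower and none higher, with a median of -0.39, and -0.22 when dim probes were left out. Mt1 had levels of 32264, 38004 and 15455 (-1.30) and Errfi1, an inhibitor of the EGF receptor, of 17116, 20844 and 10044 (-1.05). Fkbp5 (0.05) and Sgk1 (0.32), other glucocorticoid targets, did not follow. Acute phase genes had a median of -0.19, and -0.06 with quantile normalisation, with 5 of 26 above 0. Socs3, the feedback inhibitor of cytokine signalling, had levels of 277, 596 and 222 (-1.42), Cebpd of 661, 981 and 502 (-0.97) and Lcn2 of 2760, 3874 and 2087 (-0.89), each high on YAP (1SA). Saa3 (0.71), which macrophages also make, was highest.

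Socs3 and Cish, both feedback inhibitors of STAT signalling, were lower in YAP (2SA), and their promoters hold the GAS letters TTCNNNGAA to which STAT factors are known to bind. They are shown with the limits and source given above and the matches in capitals.
Socs3, chr11:117969317-117969616, minus strand: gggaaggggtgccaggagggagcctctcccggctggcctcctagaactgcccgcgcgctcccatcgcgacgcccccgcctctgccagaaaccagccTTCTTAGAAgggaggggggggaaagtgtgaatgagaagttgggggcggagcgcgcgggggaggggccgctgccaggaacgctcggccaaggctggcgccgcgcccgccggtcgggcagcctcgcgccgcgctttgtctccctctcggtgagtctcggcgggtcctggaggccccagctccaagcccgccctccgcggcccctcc
Cish, chr9:107296409-107296708, plus strand: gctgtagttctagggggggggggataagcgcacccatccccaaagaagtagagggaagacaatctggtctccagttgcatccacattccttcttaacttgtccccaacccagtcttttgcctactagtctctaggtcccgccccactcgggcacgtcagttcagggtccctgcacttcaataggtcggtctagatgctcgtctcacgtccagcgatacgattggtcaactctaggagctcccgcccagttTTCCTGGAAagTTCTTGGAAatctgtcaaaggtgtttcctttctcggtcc
Socs3 holds 1 match, 154 bases before the start, and Cish holds 2, at positions 1 and 12 counted from the start. The window of Gadd45g, another stress and cytokine response gene among the lowest, holds none.

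Stress response lists had medians near 0 with single members apart. Among 23 immediate early genes, Ier3 (1.18, and 0.67 with normexp) was at least 2-fold higher and Egr1, at 148, 511 and 233 (-1.13), lower. Myc (-0.84), Dusp1 (-0.75) and Nr4a1 (-0.68) were lower, and Ier5 (0.94), Fos (0.89) and Klf6 (0.85) were higher. The median of 0.01 became -0.34 over the 12 genes of higher signal. Among 18 cytosolic heat shock genes, Hspb1, HSP27, had levels of 2430, 1326 and 3056 (1.20) and Hspa1a of 33.8, 40.6 and 17.1 (-1.24), with a median of -0.17. Among 24 ATF4 and amino acid stress genes, Nupr1, at 130, 53.3 and 117 (1.14), was at least 2-fold higher, while Ddit4 (-0.96) was lowest and the median was -0.10. Among 19 ER chaperone genes none passed 2-fold, and the median was 0.05.

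In the remaining lists 2 members passed 2-fold. Stellate cell and matrix genes had a median of -0.06 over 22 members, with Thbs1 (1.20, and 0.21 with normexp) past 2-fold and Lrat (-0.87) and Dcn (-0.68) lowest. The summed level of 6 stellate cell markers was 2866, 2758 and 1883, a log2 ratio of -0.55 between the mutants. The 5 markers measured on both lay below 0, and Dcn, at 2069 on YAP (1SA) and 1292 on YAP (2SA), gave most of that sum. Sinusoidal endothelial genes had a median of 0.02 over 20 members, from Clec4g (-0.71) to Lyve1 (0.54). Their 6 markers summed to 7602, 8057 and 6350, a log2 ratio of -0.34. These markers went both ways. Clec4g, at 3113 on YAP (1SA) and 1905 on YAP (2SA), had the largest drop, and Stab2 (-0.33) and Kdr (-0.24) were also lower. Lyve1, Pecam1 (0.45) and Stab1 (0.31) were higher in YAP (2SA). Complement and coagulation genes had a median of -0.14 over 33 members, with C5ar1 the member past 2-fold, and apolipoprotein genes of -0.05 over 21. Insulin-like growth factor genes (0.03, 14 members) and glucose and glycogen genes (-0.11, 20 members) had no member past 2-fold. Red blood cell genes leaned below 0 as a list, with 2 of 15 above 0, a median of -0.31 and none past 2-fold, with Slc25a37 (-0.90) and Tfrc (-0.87) lowest and Hba-a1 at 3330, 6224 and 4544 (-0.45). Reference genes had a median of -0.06 over 14 members, and of 0.08 with quantile normalisation. Gapdh differed by -0.28, and by -0.11 with quantile normalisation, which is within spot error. Genes of the Y chromosome (Ddx3y, Eif2s3y and Uty) were measured on each array and differed by -0.28 to -0.02.

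Array features of other kinds did not share 1 direction. Of 5247 measured probes for long intergenic regions, 44 lay past 2-fold upwards (0.84%) and 99 downwards (1.89%), with a median of -0.11. Probes with accessions of curated messenger RNA (NM) had 423 higher and 189 lower of 17858 and a median of -0.03. Probes for non-coding RNA (NR) had 5 higher and 11 lower of 393. Probes with predicted RefSeq accessions (XM or XR) had 10 higher and 2 lower of 456, Ensembl probes 19 and 21 of 1447, and the other probes 43 and 45 of 3450.

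Probes measured on 1 array of the pair gave an approximate bound of the fold. The level was divided by the lowest measured signal of the other array, or by the probe's own level there if higher. Signals above that lowest value were not always measured, as with Rfx5 at 1.89 on YAP (2SA), where the lowest was 1.86. A true fold can therefore be smaller than its bound. The bounds were not recomputed with normexp, which shrinks dim differences. YAP (2SA) alone measured 1933 probes, of which 349 had a bound of at least 2-fold, and YAP (1SA) alone measured 854, of which 507 did. The lowest measured signal on YAP (1SA) was higher than on YAP (2SA), which makes bounds against YAP (1SA) smaller. On YAP (2SA) alone, the bound was 33.5-fold for Pdzd2, a PDZ domain protein, and 28.3-fold for the glutamate receptor subunit Grin2a. It was 24.9-fold for Il1rapl1, 21.4-fold for Cldn34-ps and 11.8-fold for Cmklr1, the receptor for chemerin. On YAP (1SA) alone, the bound was 40.7-fold for Vwa3a, 31.4-fold for Fthl17a, 27.1-fold for the kinase Camk4, 23.4-fold for Rfx5 and 21.4-fold for Moxd1. None of these 10 genes was well above background on YAP (WT). Among the markers, Umod, a kidney gene, was measured on YAP (1SA) alone, at a level of 38.9.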

How the data were processed

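The arrays were Agilent SurePrint one-colour arrays, 1 each for YAP (WT), YAP (1SA) and YAP (2SA). They were hybridised with Cy3-labelled cRNA made from total RNA of whole liver. The intensity values were deposited by the authors as Feature Extraction output (version 10.10.1.1), per the file headers against mouse build mm9, and are processed spot brightness on a linear scale, after the scanner software's background and detrending steps. The deposited series matrix held the same intensities multiplied by a constant for each array (3.02 for YAP (WT), 3.08 for YAP (1SA) and 2.81 for YAP (2SA)), and the origin of these constants is not stated.

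Of 59305 non-control spots, outlier spots were left out (181 on YAP (WT), 148 on YAP (1SA), 182 on YAP (2SA)). Values were scaled to each array's 75th percentile, log2 values of a probe's spots were averaged, and a probe was measured when at least 50% of its spots were well above background. RefSeq accessions without version matched 26762 of 55681 probes to 20284 symbols of a GRCm38.p6 gene table, used for names. A gene was its brightest probe measured on both arrays. No test was run, with 1 array a group; the number of arrays limits the precision. Differences of at least 2-fold were counted. The array held 399 probes with 10 spots. Spot error came from the repeated probes that were measured, 311 on YAP (1SA) and 321 on YAP (2SA).

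The genes named were drawn from the 15 highest and 15 lowest genes, the same among genes of mean signal above the median, the 3 highest and 3 lowest members of each list with any past 2-fold, the study genes and the 5 largest bounds each way. Predicted genes and olfactory or vomeronasal receptors (645) were left out of these rankings, and some genes are not reported here. Members and lists were chosen with earlier results of these data known, and a few other members were named after their values were seen. Alternatives were quantile normalisation, the array median, normexp (offset 50, on median spot and background brightness), the series matrix, no or a stricter filter on dim probes, kept outlier spots, the mean of a gene's probes and a 3-fold threshold. The calculation was tested on simulated data. Python 3.11.15, pandas 2.3.3, numpy 2.4.6, matplotlib 3.10.9, R 4.3.3 and limma 3.58.1 were used.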

Additional observations from a re-analysis of the deposited data

How the results depend on the processing

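No paired analysis was possible because 1 array stood for each group, so no replicate number could be shared. Leaving out replicates and fitting the slide as a block were not run for the same reason. The counts of genes at least 2-fold higher and lower in YAP (2SA), 346 and 162, were 342 and 161 with quantile normalisation, 335 and 170 with the array median, 425 and 130 with the series matrix values, 348 and 172 with outlier spots kept and 342 and 155 with the mean of a gene's probes. They were 151 and 56 with normexp, 850 and 692 of 20270 genes with no filter on dim probes, 151 and 65 of 8823 genes with the stricter filter, and 89 and 39 past 3-fold. The share of higher genes among those past 2-fold was 68.1% as reported and 55.1% with no filter. No scaling moved the median of all genes by more than 0.08. Fewer genes enter with the stricter filter, normexp shrinks dim differences through its offset, and other causes were not tested.

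Of the 47 list medians, 35 kept their sign under all 8 settings that applied, and 8 of 376 values moved past the limit of spot error. With normexp bile duct genes had a median of 0.30. With no filter chemokines had 0.29 and female biased genes -0.0851. With the stricter filter the medians were 0.62 for interferon gamma genes, 0.30 for chemokines, 1.42 for bile duct genes, -0.34 for immediate early genes and 0.14 for fetal liver genes. Of 130 named genes past 2-fold, all kept their direction under 7 settings, and 88 of 88 under the stricter filter, which left out the others. With normexp 92 of the 130 remained past 2-fold. Where normexp took a gene below 2-fold this stands beside it in the text, or a value between 0.79 and 0.99 in size was left, for Fcgr1, Gbp9, Ifit2, Nupr1 and Snai2, and, below 0, Ciart, Egr1, Hspa1a, Meg3 and Tff3. Other settings left genes near the threshold just below 2-fold, with Cyp7b1 at -0.93 and Errfi1 at -0.91 under quantile normalisation, Heyl at -0.95 under the series matrix and Cyp4a31 at 0.96, Zbp1 at 0.98, Slc1a2 at -0.99 and Vipr1 at -0.93 under the mean of a gene's probes.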
